A study of Salmo salar with 18 samples.

Results

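The gene followed here was cirbp, which encodes the cold-inducible RNA-binding protein, as measured by the array probe C107R130 in the liver of Atlantic salmon. It was chosen by that probe's identifier as a gene known to respond to cold, and it is 1 of 43689 probes on the array and 1 of 23846 that could be tested. The study had already picked this probe's gene for qPCR, among genes that it called as differing on these same arrays. The tests below are therefore not independent of that choice. CIRBP is a small nuclear RNA-binding protein with a single RNA recognition motif followed by a glycine- and arginine-rich tail. In mammals its transcript is induced by mild cooling and lowered by heat, it moves to the cytoplasm and to stress granules under stress, and it binds the messages of stress-response genes and changes their stability and translation. Cirbp and its relative RBM3 are the textbook examples of cold-shock proteins in vertebrates.

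The study asked how liver transcripts of post-smolt salmon kept in seawater changed on slow warming, alone or together with moderate hypoxia. Control (CT) fish stayed at 12 °C and 100% air saturation. Warm & Normoxic (WN) fish were brought to 20 °C by steps of 1 °C a week at 100% air saturation. Warm & Hypoxic (WH) fish were first lowered to 70% air saturation and held there, then warmed by the same steps, and the warmed fish were sampled after 3 days at 20 °C. Each treatment had 6 fish, 3 from each of its 2 tanks, and every fish was 1 array on which its amplified liver RNA, labelled with Cy5, was hybridized against a Cy3-labelled pool of all 18 fish. Each value below is therefore a log2 ratio of a fish to that pool, so 0 means equal to the pool, and a difference of 1 between groups is a doubling.

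The study's own annotation gives C107R130 to the salmon gene LOC106573600, described there as cold-inducible RNA-binding protein B-like, and the study designed primers on a cDNA clone of it. By qPCR with these primers, the study reported cirbp as significantly lower in both warmed groups than in CT fish. The array fish were taken from the fish sampled for that qPCR. The primers are shown because they are the only sequences at hand for this transcript (lower case throughout, written 5′ to 3′).
cirbp forward: ttgagtacacagcggtgaatt
cirbp reverse: accaatctgatgctatgacgaga
The Atlantic salmon lineage duplicated its genome, and the RefSeq annotation of the assembly Ssal_v3.1 lists 5 protein-coding loci with a CIRBP name or description. LOC106573600 has 6 annotated transcripts and 5 proteins there and lies between LOC106573597 and LOC106573599. The other loci are cirbp, cirbpb (beside midn and atp5f1d), LOC100136385 and LOC106569552. A second probe on the array, C255R069, was also named CIRBP in the study's tables and was given to LOC106569552. It has that name here only because the study listed it among probes that it called as differing on these same fish. A CIRBP probe that the study did not list would carry no name here. Whether C107R130 or C255R069 also binds transcripts of another copy was not tested.

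Measured by C107R130, cirbp was lower in the liver of warmed fish than in that of CT fish, whether or not oxygen was also lowered. With the second probe, C255R069, warmed fish also had lower means, but neither difference passed the threshold used below. Since C255R069 was named through the study's list of differing probes, its direction is not independent support. The C107R130 log2 ratio was 0.47 ± 0.34 in CT fish, −0.53 ± 0.37 in WN fish and −0.77 ± 0.23 in WH fish (mean ± SD, n = 6 each). By C107R130, the transcript thus stood 2.00-fold lower in WN fish and 2.36-fold lower in WH fish. In a liver sample, fewer cells that express a transcript and less of it per cell cannot be told apart.

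The 6 CT fish had log2 ratios of 0.18, 0.37 and 0.28 in the first tank and 0.20, 0.80 and 0.98 in the second. All 6 were above the pool, and the 2 highest, CT-5 and CT-6, shared a tank. The WN fish had log2 ratios of −0.87, 0.05 and −0.20 in their first tank and −0.59, −0.79 and −0.79 in their second. WN-2, at 0.05, was the only warmed fish above the pool, yet it was below the lowest CT fish. The WH fish had log2 ratios of −0.40, −0.75 and −0.84 in the first tank and −1.08, −0.67 and −0.87 in the second. They were all below the pool and below every CT fish, and they overlapped with the WN fish.

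**Figure D1:**
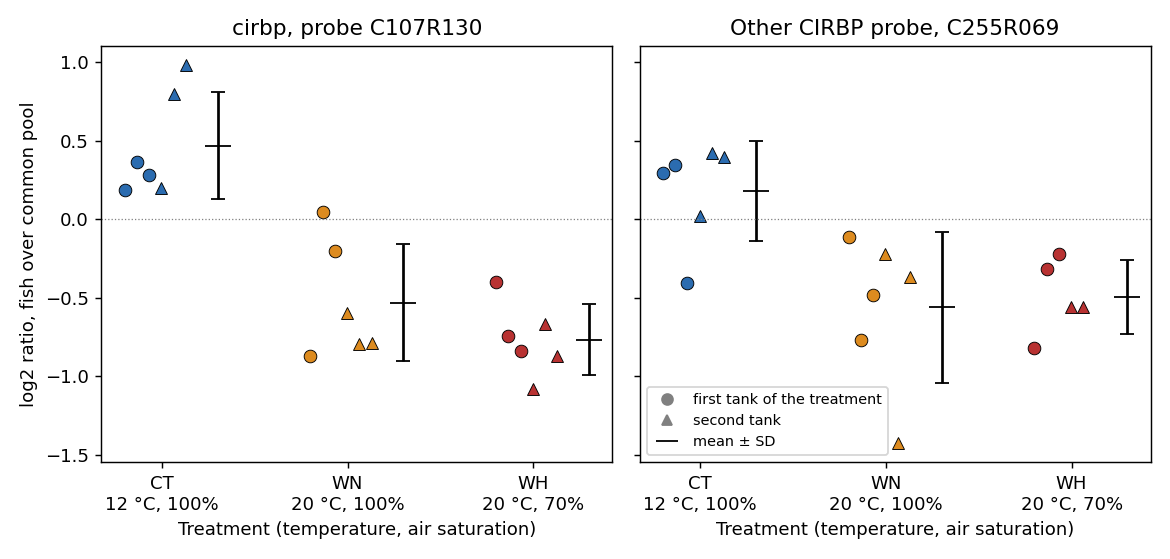
Log2 ratio of each fish to the common pool (vertical axis) for probe C107R130 (left) and the other probe named CIRBP, C255R069 (right), by treatment, with circles and triangles for the 2 tanks of a treatment and bars for the mean ± SD. For C107R130 no warmed fish reached the lowest CT fish (0.18), whereas for C255R069 one CT fish (−0.40) lay among the warmed fish.

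Treatments were compared by limma in a fit of the 3 groups over 18 arrays, with p adjusted by Benjamini-Hochberg over 23846 probes and a threshold of 0.05. Between WN and CT fish, the C107R130 log2 fold change was −1.002 (SE 0.21, 95% confidence interval −1.43 to −0.58, limma adjusted p = 0.00523), with 6 of 6 WN fish below the CT mean. At this threshold 3.08% of all probes tested were called lower in WN fish, and C107R130 had rank 322 by p among all probes. Between WH and CT fish, its log2 fold change was −1.24 (SE 0.21, interval −1.66 to −0.81, limma adjusted p = 0.000709), with 6 of 6 WH fish below the CT mean. Here 2.72% of all probes were called lower, and its rank was 155. Both comparisons use the same CT fish, so they are not separate tests of warming. In an exact two-sided permutation test over the 924 splits of 6 against 6 fish, p was 0.00217 for each, the smallest this design can give. Of the probes with a value in all 12 fish compared, 2.02% had every WN fish below every CT fish and 2.09% had every WH fish below every CT fish, as C107R130 did.

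Between WH and WN fish, the C107R130 log2 fold change was −0.23 (SE 0.21, interval −0.66 to 0.19, limma adjusted p = 0.913, exact permutation p = 0.216), and 5 of 6 WH fish lay below the WN mean. The difference was within the spread between fish, and its interval holds no change as well as a further decrease of up to 0.66. Between these treatments limma called 0 probes (0%) of the 23846, with a smallest adjusted p of 0.412 and 1377 probes at an unadjusted p under 0.05.

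Treatment was given to tanks, and tank-mates were counted as independent fish in these tests. The mean C107R130 log2 ratio was 0.28 and 0.66 in the CT tanks, −0.34 and −0.72 in the WN tanks and −0.66 and −0.87 in the WH tanks. Each of the 4 warmed tanks was below both CT tanks. An exact permutation test of 4 warmed against 2 CT tank means gave a two-sided p of 0.0667 (difference −1.12), the smallest that 15 splits allow, so this unit cannot pass 0.05. Within each pair of tanks, the tank with the higher mean exceeded the other by less than the difference between CT and warmed tanks.

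The arrays lay on 5 slides of at most 4 arrays, which can be compared slide by slide with 1 or 2 fish of each treatment. Within the 3 slides that held both CT and WN fish, C107R130 was lower in the WN fish by a log2 difference of −1.06, −1.42 and −0.64. Within the 3 slides that held both CT and WH fish, the difference was −1.71, −1.50 and −0.77. WH fish stood below WN fish by −0.08, −0.13 and −0.26 on the 3 slides shared by them. All of these differences had the sign of the pooled one. When limma was given the slide as a block, the log2 fold change was −1.12 for WN (adjusted p = 0.00902) and −1.38 for WH (adjusted p = 0.00271).

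The spot itself was clearly measured. C107R130 carried no quality flag and no saturation on any of the 18 arrays, and it was above the background in both channels on each of them. That background was a low bar, at 1 in Cy3 on every array but that of WH-6 (94) and at 1 to 213 in Cy5. The Cy5 signal, which is that of the fish, ran from 1094 to 2698 in CT fish with a median of 1596. In WN fish it ran from 402.5 to 1366 with a median of 618.5, and in WH fish from 463.5 to 1307.5 with a median of 708. WN-2 and WH-1 were the warmed fish with Cy5 signals inside the CT range. The Cy3 signal of the pool ran from 697 to 1795 beside CT fish with a median of 926. Beside WN fish it ran from 806 to 1767 with a median of 1373, and beside WH fish from 821 to 2271.5 with a median of 1499. The pool's signal was thus brighter at the median on the warmed arrays than on the CT arrays, although it held the same RNA on all of them. Over all probes, the median Cy3 signal was 24, 71.5, 60.5 and 74 on the arrays of CT-1, CT-4, CT-5 and CT-6. It was 233.5 and 321 on those of CT-2 and CT-3, and 101 to 490 on the warmed arrays. Channel balance thus went in part with treatment. The authors adjusted the scanner's photomultipliers by hand, and loess normalization within each array was used to take such differences out.

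**Figure D2:**
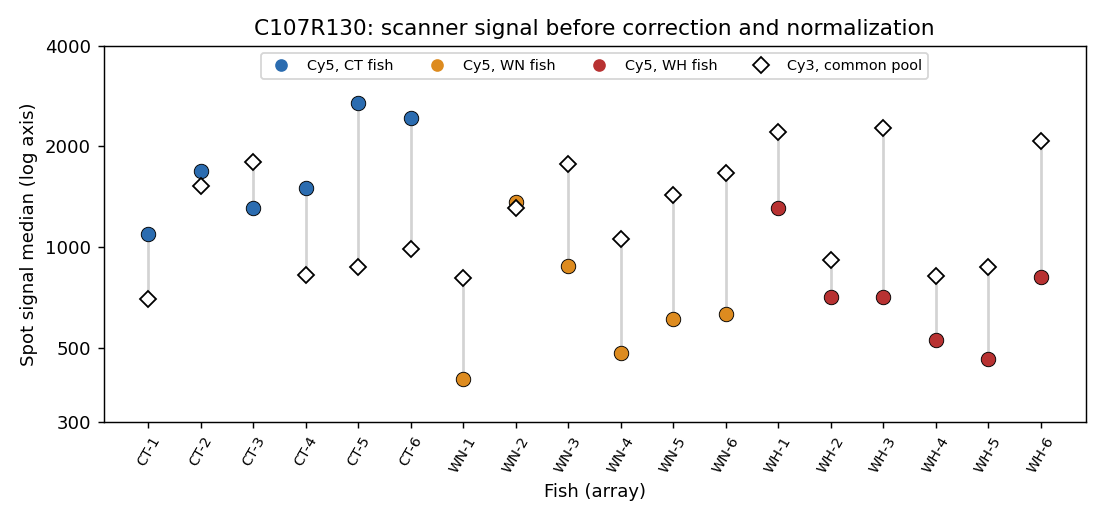
Scanner signal of the C107R130 spot on each array (log axis) before background correction and normalization, with filled circles for the fish (Cy5) and open diamonds for the common pool (Cy3). The fish was below the pool on 11 of the 12 warmed arrays and on 1 of the 6 CT arrays (CT-3).

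Before any correction, the log2 ratio of the Cy5 to the Cy3 signal of this spot was −0.46 to 1.63 in CT fish, −1.40 to 0.06 in WN fish and −1.68 to −0.38 in WH fish, and the CT range overlapped with both others through CT-3. After correction and loess, neither warmed group overlapped with CT fish. Under median centring of the arrays instead of loess, the log2 fold change was −1.02 for WN (adjusted p = 0.0414) and −1.16 for WH (adjusted p = 0.0153), and the highest WN fish (WN-2, −0.47) passed the lowest CT fish (CT-2, −0.48). In the log2 ratios of the authors' processed table, C107R130 was 0.50 ± 0.34 in CT, −0.60 ± 0.43 in WN and −0.84 ± 0.29 in WH fish (mean ± SD, n = 6 each), with log2 fold changes of −1.10 (adjusted p = 0.0036) and −1.34 (adjusted p = 0.00063) in the same limma fit and no overlap with CT fish. The file headers give CT-6 and WN-5 a scan apart from the other arrays of their slides. Without CT-6, the log2 fold change was −0.90 for WN (adjusted p = 0.0187) and −1.13 for WH (adjusted p = 0.00271), and without WN-5 it was −0.95 for WN (adjusted p = 0.0135).

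**Figure D3:**
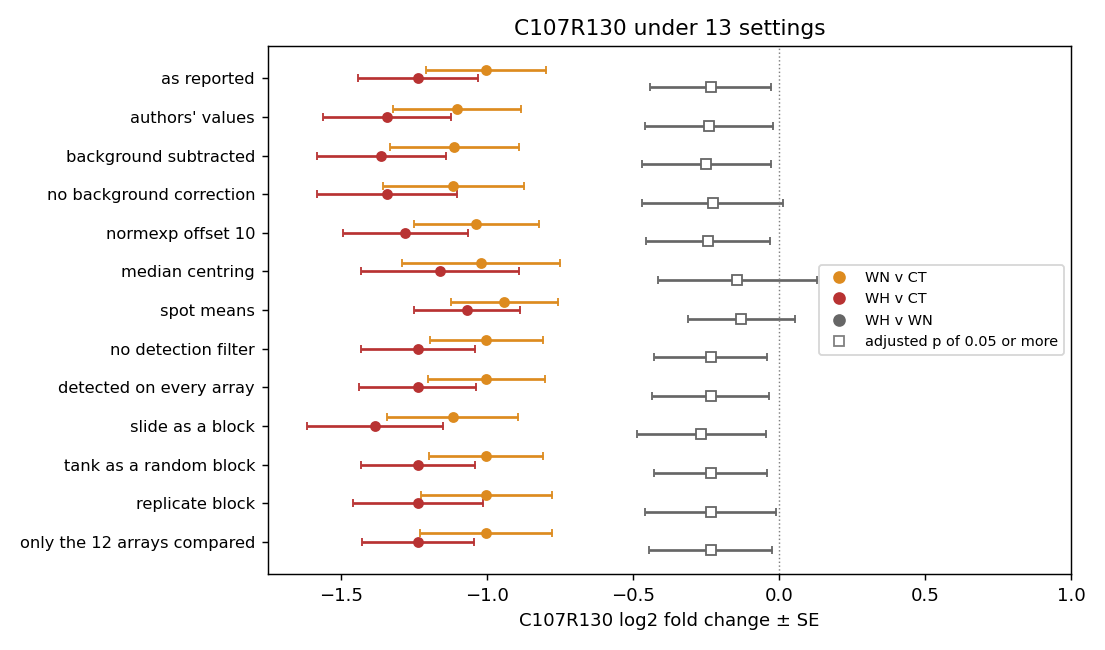
C107R130 log2 fold change ± SE (horizontal axis) for the 3 comparisons under 13 settings of the processing and the limma fit, with filled circles where the adjusted p was under 0.05 and open squares where it was not. Both comparisons with CT fish stayed past the threshold in every setting drawn, and WH v WN in none. The log2 fold change lay between −0.94 and −1.12 for WN and between −1.07 and −1.38 for WH. Some of the settings cannot move it.

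The other CIRBP probe, C255R069, gave lower means in warmed fish but did not pass the threshold. It was the brighter of the 2 probes, as 98.2% of all probes tested were dimmer, against 58.1% for C107R130. The C255R069 log2 ratio was 0.30, 0.35, −0.40, 0.02, 0.42 and 0.39 in CT fish 1 to 6. CT-3 was the lowest of them, whereas for C107R130 it was an ordinary CT fish. In WN fish 1 to 6 the C255R069 log2 ratio was −0.11, −0.77, −0.48, −0.22, −1.43 and −0.37. WN-5 was the lowest fish of all. In WH fish 1 to 5 it was −0.82, −0.31, −0.22, −0.56 and −0.56, and the WH-6 spot was flagged by the image software and left out. Both warmed groups overlapped with CT fish through CT-3.

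The C255R069 log2 fold change was −0.74 in WN fish (SE 0.22, interval −1.21 to −0.28, limma adjusted p = 0.0587), with 6 of 6 fish below the CT mean. In WH fish it was −0.67 (SE 0.23, interval −1.16 to −0.19, limma adjusted p = 0.110), with 5 of 5 fish below the CT mean. The exact permutation p, not adjusted over the array, was 0.0108 for each. Between WH and WN fish it was 0.07 (SE 0.23, interval −0.42 to 0.55, limma adjusted p = 0.977). For C255R069 too, each of the 4 warmed tanks had a mean below both CT tanks (exact permutation p = 0.0667, the smallest that 15 splits allow). The mean of WH-6's tank rests on 2 fish, as WH-6 was left out. Within slides, WN fish differed from CT fish by −0.27, −0.36 and −0.84, and WH fish by −0.86 and −1.17. Another slide with CT and WH fish is missing here, because its only WH fish was WH-6. The flagged value of WH-6 (1.20) was above those of the CT fish on that slide, CT-3 (−0.40) and CT-6 (0.39). Whether the WN difference passed depended on the processing. The adjusted p was 0.03 in the authors' values (log2 fold change −0.89) and 0.0305 without CT-3 (−0.86). It was 0.251 with median centring (−0.70) and 0.203 with slide as a block (−0.64). With the flagged WH-6 spot taken back (log2 ratio 1.20, the highest of any fish), the WH mean was −0.21 ± 0.72 (SD, n = 6) and the WH v CT difference −0.39 (adjusted p = 0.534).

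Whether warming moved the 2 probes by different amounts was tested on the within-fish difference of their log2 ratios, a test chosen after the values had been seen. The warmed-minus-CT change of C107R130 minus that of C255R069 was −0.26 on the log2 scale in WN fish (exact permutation p = 0.379, adjusted over the 2 comparisons 0.379) and −0.54 in WH fish (exact permutation p = 0.0455, adjusted 0.0909, n = 5 WH fish). A difference between the probes was therefore not shown.

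Between fish of the same treatment, no relation between the 2 CIRBP probes was detected. With the treatment means taken out, Pearson's r between them was 0.05 and Spearman's rho −0.05 over 17 fish (permutation p = 0.89 and 0.874, two-sided). The same was asked of 5 other transcripts linked with heat, oxygen or CIRBP, which makes 6 relations adjusted together. Each was asked by 1 probe, and the other SERPINH1 probes were left out. For serpinh1 (C236R132), the collagen chaperone HSP47 of the endoplasmic reticulum, r was −0.56 and rho −0.53 over 18 fish (permutation p = 0.0345 and 0.0415, adjusted 0.207 and 0.249). This relation did not pass the correction, and without the 2 fish farthest from the median r was −0.39 (permutation p = 0.169). In the authors' values, which hold 16 of these fish, r was −0.67 (permutation p = 0.00635, adjusted 0.0381) and rho −0.75 (permutation p = 0.00368, adjusted 0.0221). With slide taken out of the values computed here, over 18 fish, r was −0.52 and rho −0.55 (permutation p = 0.0662 and 0.0311, adjusted 0.199 and 0.0933). For egln2 (C079R030), one of the oxygen-sensing prolyl hydroxylases that mark HIF-1α for degradation, r was −0.45 and rho −0.40 over 16 fish (permutation p = 0.114 and 0.181, adjusted 0.342 and 0.543). With slide taken out, they were −0.52 and −0.61 (permutation p = 0.0413 and 0.0126, adjusted 0.199 and 0.0756). Without the 2 fish farthest from the median, r was −0.22 (permutation p = 0.45). For hsp90aa1 (C182R027), an inducible cytosolic chaperone, r was −0.12 and rho −0.12 (permutation p = 0.688 and 0.659). For hif1α (C120R146), the oxygen-regulated transcription factor subunit, they were both −0.14 (permutation p = 0.617 and 0.61). For txn (C182R133), the thioredoxin whose message CIRBP binds in human cells, they were −0.07 and −0.03 (permutation p = 0.788 and 0.921). None of the 6 passed 0.05 after adjustment in the values computed here. Tank means were not taken out, so differences between the tanks of a treatment remain in these relations, and tank-mates were permuted as independent fish.

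**Figure D4:**
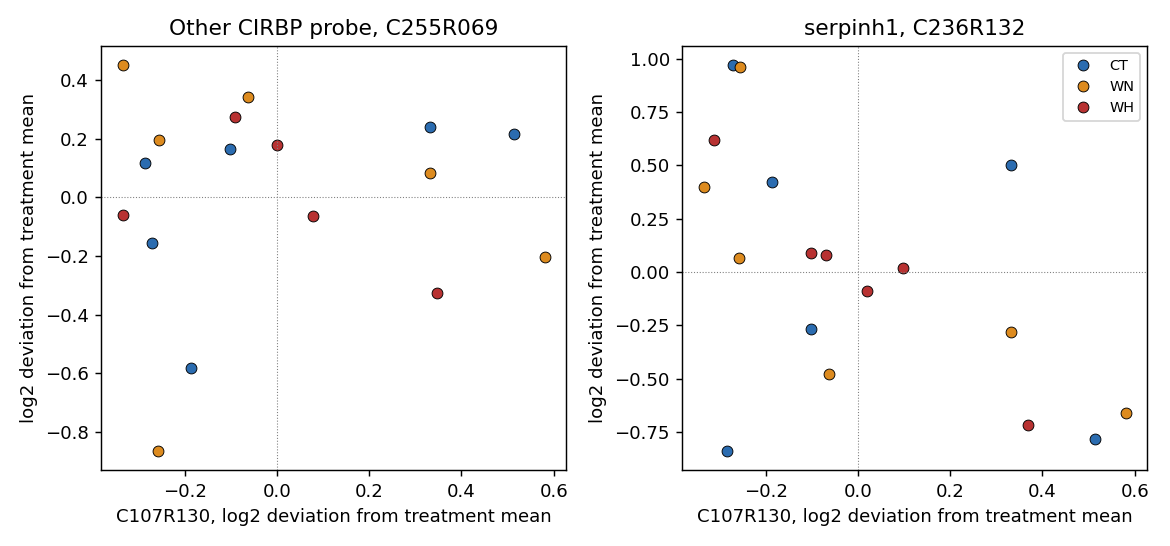
Deviation of each fish from its treatment mean on the log2 scale for C107R130 (horizontal axis) against the other CIRBP probe (left, vertical axis, 17 fish) and against serpinh1 (right, vertical axis, 18 fish), coloured by treatment. The left panel has an r of 0.05, and the right panel leans downward with an r of −0.56 that did not pass the correction over 6 relations.

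The partner transcripts themselves moved as follows between treatments. Serpinh1 was at −2.83 ± 0.74 in CT, −0.41 ± 0.61 in WN and 0.07 ± 0.43 in WH fish (log2 ratio, SD, n = 6 each), a rise by 2.42 in WN (limma adjusted p = 7.74e-05) and 2.90 in WH fish (8.93e-06). Hsp90aa1 rose by 1.36 in WN (limma adjusted p = 0.00564) and 1.97 in WH fish (0.000149). Hif1α was at 0.35 ± 0.32 in CT fish, −0.27 ± 0.32 in WN and −0.59 ± 0.25 in WH fish, with a log2 fold change of −0.62 in WN (limma adjusted p = 0.0748) and a decrease past the threshold of −0.95 in WH fish (0.00536). Egln2 had −1.04 in WN (limma adjusted p = 0.07, 4 fish) and fell by 1.01 in WH fish (0.0474). Txn had 0.79 in WN (limma adjusted p = 0.0767) and 0.76 in WH fish (0.093), neither past the threshold. On the same arrays, C107R130 thus fell while both chaperone probes rose.

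Around cirbp, the lists of related genes hold only probes that the study's tables name. Those tables list mainly probes that the study picked on these same fish, 1506 in all, so a list's counts are not independent evidence of its direction. Of the genes known in mammals as CIRBP or RBM3 targets and partners, 6 had a probe. Of their 9 probes, 0 rose and 1 fell in WN fish, against 1.86% of all probes called higher and 3.08% called lower, and 1 rose and 3 fell in WH fish, against 2.42% and 2.72%. Their median log2 fold change was −0.62 in WN and −0.70 in WH fish, where it was 0.01 and 0.04 over all probes tested. This median is over probes, not genes. In each comparison 6 probes had a negative and 3 a positive log2 fold change. The negative ones were repeated probes of RTN3 and RPA2 and that of HIF1A, and the positive ones were of CCND1, EIF4G1 and TXN. Nothing is read from this median or from these counts. RTN3 (C047R086), a reticulon that shapes the endoplasmic reticulum and whose translation RBM3 promotes in mouse neurons, fell by 0.91 in WN (limma adjusted p = 0.0171) and 0.96 in WH fish (0.015). Of the other RTN3 probes, C187R043 had −0.57 in WN (0.0993) and fell by 0.81 in WH fish (0.0155), and C087R091, with a value in only 3 WH fish, had −0.88 (0.0602) and −0.86 (0.147). EIF4G1 (C172R074), a scaffold of translation initiation, had 0.71 in WN (0.0816) and rose by 0.82 in WH fish (0.0392). In the list of cold- and temperature-responsive RNA-handling genes, SRPK1 (C150R089), a kinase of splicing factors, was the only gene with a probe. It rose by 1.69 in WN (limma adjusted p = 0.00129) and 2.05 in WH fish (0.000156).

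RNA-binding proteins of the splicing and messenger ribonucleoprotein machinery, most of which share CIRBP's RNA recognition motif, had 25 probes for 20 genes in the same tables. Of these, 11 rose and 7 fell in WN fish, where 1.86% of all probes were called higher and 3.08% lower, and 8 rose and 4 fell in WH fish, against 2.42% and 2.72%. Their median log2 fold changes were −0.43 and −0.11, and nothing is read from counts over probes so picked. The 2 highest and the 2 lowest by the mean over both comparisons were as follows. SFRS1 (C219R092), a splicing factor of the SR family, rose by 1.34 in WN (limma adjusted p = 0.00177) and 1.20 in WH fish (0.00374). SRSF6 (C114R035), of the same family, rose by 1.17 (0.000425) and 1.32 (8.36e-05). RBM4 (C131R001), a splicing and translation regulator, fell by 0.99 (0.0217) and 1.05 (0.0132). The other RBM4 probe, C166R027, had −0.66 (0.0609) and −0.26 (0.57), neither past the threshold. SERBP1 (C047R151), an mRNA- and ribosome-binding protein that lacks the motif, fell by 1.01 (0.0262) and 1.00 (0.0264).

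Of 34 heat-shock probes for 18 genes, drawn from the same tables, 24 rose and 4 fell in WN fish, where 1.86% of all probes were called higher and 3.08% lower. In WH fish 22 rose and 2 fell, against 2.42% and 2.72%, with median log2 fold changes of 1.33 and 1.16 in WN and WH. Since the tables list mainly probes picked on these fish, nothing is read from these counts. By the mean over both comparisons, SERPINH1 had the highest, C205R085 with 3.09 in WN (limma adjusted p = 2.30e-07) and 3.49 in WH fish (3.92e-08) and C009R155 with 3.08 (2.98e-08) and 3.16 (1.72e-08). By the same mean, the lowest were HSPD1 (C126R097), the mitochondrial chaperonin, and HSPA14 (C096R055), a ribosome-associated HSP70 relative. This HSPD1 probe fell by 1.08 in WN (limma adjusted p = 0.00162) and by 1.08 in WH fish (0.00133). The other HSPD1 probe, C203R077, fell by 0.83 in WN (0.0469) and had −0.54 in WH fish (0.231). HSPA14 fell by 0.93 in WN fish (0.0325) and had −0.68 in WH fish (0.13).

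Over all 18 fish, the profiles most like that of C107R130 were found by the root mean square difference between centred log2 ratios, among the 18651 probes tested that have a value on every array. This is a description with no test, since probes that differ between treatments resemble each other for that reason, and nothing about shared control follows from it. The nearest was ADTRP (C105R106), a regulator of tissue factor pathway inhibitor, with a difference of 0.280 on the log2 scale, where the SD of C107R130 itself over the 18 arrays was 0.61 and the median over all these probes was 0.757. ADTRP was at 0.60 ± 0.20 in CT, −0.23 ± 0.17 in WN and −0.23 ± 0.25 in WH fish (log2 ratio, SD, n = 6 each), and neither warmed group overlapped with CT fish. Next came MAPRE3 (C064R113), a protein of growing microtubule ends, at 0.286, and TMEM237 (C092R140), a protein of the ciliary transition zone, at 0.291. The others that carry a gene name were ANP32E (C113R123), a chaperone of the histone H2A.Z, the uncharacterised LOC106580669 (C104R101), STMN1 (C181R051), which destabilises microtubules, and APPBP2 (C134R156). C040R123, C126R134 and C044R148 carry no name in the tables used here, and the last of the 10 had a difference of 0.323. The other CIRBP probe, C255R069, was farther away at 0.488 over 17 arrays.

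With the sign of the profile turned, the nearest was SRSF6 (C114R035), at 0.293. It was at −0.87 ± 0.28 in CT, 0.30 ± 0.27 in WN and 0.45 ± 0.15 in WH fish (log2 ratio, SD, n = 6 each). The others were CRELD1 (C194R063), SDHA (C063R041), a subunit of the mitochondrial succinate dehydrogenase, and the unnamed C187R133 and C186R066, with differences of up to 0.329. SRSF6 was below the pool in all 6 CT fish, where C107R130 was above it.

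**Figure D5:**
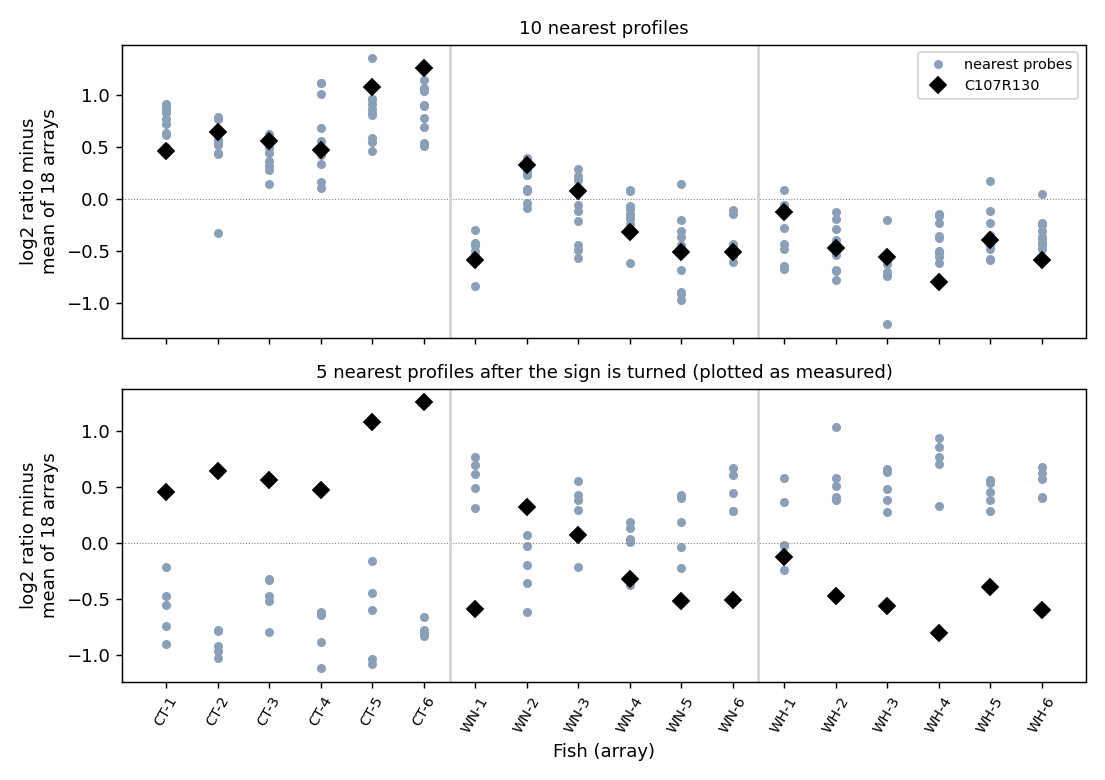
Log2 ratio of each fish minus the probe's mean over 18 arrays (vertical axis) for C107R130 (black diamonds) and its 10 nearest profiles (upper panel, grey-blue circles) and the 5 nearest after the sign is turned (lower panel, plotted as measured). In the upper panel the circles lie around the diamonds, at root mean square differences of 0.280 to 0.323.

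Of the markers listed for the cell types of the organ, none of the 12 hepatocyte genes and none of the 9 exocrine pancreas genes had a probe named in the tables used here, so the liver label was not checked against them. Of the erythrocyte and leukocyte lists, 1 gene each was matched to probes tested. The study also named a probe for epx, a gene of the leukocyte list, and reported it as higher on the arrays in both warmed groups. By qPCR, the study reported epx as significantly higher in WN fish only. The epx probe is not among those counted here. The 2 probes of ALAS2, the erythroid enzyme of haem synthesis, had log2 fold changes of −0.57 and −0.71 in WN fish and −0.66 and −0.50 in WH fish (limma adjusted p = 0.0665 to 0.224). The 3 probes of IGHM, the immunoglobulin heavy chain of B cells, had −0.86 to −0.74 in WN and −0.83 to −0.51 in WH fish (limma adjusted p = 0.0922 to 0.287). None of the 5 probes was called, all 5 had lower means in warmed fish as C107R130 did, and their part in the cirbp result was not tested.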

How the data were processed

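Liver RNA of 18 fish was measured on 18 two-colour 44K arrays. The authors quantified each spot's signal and background intensity and a quality flag in ImaGene, and these deposited files hold 45220 spots per array, 1531 of them controls, with no correction. The authors' processed table holds log2 ratios (Cy5 over Cy3) that were background-corrected, freed of flagged spots and loess-normalized, with values for 17072 probes. Log2 ratios were computed anew from the intensities in limma (version 3.58.1, R 4.3.3) by normexp with an offset of 50 and loess within arrays, with control and flagged spots given no weight and flagged spots set to missing. Probes entered the tests if they were unflagged and at least 2 background SDs above the background in a channel on 75% of arrays (14 of 18). No dyes were swapped, so a dye effect on a probe is shared by all fish. Per array, 8.93% to 17.3% of probes were flagged, 58.8% to 81.7% were detected, and the median signal over background was 14.0 to 110.5 in Cy5 and 18.0 to 251 in Cy3. The number of arrays limits the precision.

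The limma fit had 3 treatment means and no covariate, and was tested on simulated data. SAM, the study's test, was not run. Relations between probes used 100000 permutations of fish within treatments. Alternatives were the authors' values, other background corrections, median centring, spot means, other detection filters, slide or tank as a block, the replicate number as a block, fits of only the 12 arrays compared and the omission of each array in turn. Tank as a random block used statmod (version 1.5.0). Figures were drawn with Python (version 3.11.15) and matplotlib (version 3.10.9). Named probes were C107R130, the other CIRBP probe, the relation partners, the nearest profiles and up to 4 extremes of each list. Names came from the study's tables (1506 probes, 1496 tested). Members and lists were chosen with earlier results of these data known. Replicate numbers do not pair the fish. The qPCR measurements were not analysed here. A genome build for the probes is not given in the sources used here, so no coordinates are printed.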

Additional observations from a re-analysis of the deposited data

Results flagged for a closer look

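Of 113 groups of 4 to 6 fish over the 38 probes named, 8 had a fish far from the rest (a gap to its neighbour larger than Dixon's 95% limit for the group's range), and chance gives about 1 in 20. None was a group of C107R130 or C255R069. SRPK1 (C150R089) was at 1.35 in WN-3, against 0.08 in the next WN fish. ALAS2 (C088R086) was at −0.31 in CT-2, against 0.24. HSPD1 (C126R097) was at −1.22 in WN-5, against −0.61. SERPINH1 (C205R085) was at 1.07 in WH-3, against 0.52. IGHM was at 1.10 (C150R092) and 1.17 (C072R049) in CT-3, against 0.06 and 0.28, the fish in which C255R069 was the lowest of its group. SFRS1 (C219R092) was at −0.48 in WH-4, the WH fish with the lowest C107R130, against 0.29. EIF4G1 (C172R074) was at −0.25 in WN-2, the WN fish with the highest C107R130, against 0.07.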

How the results depend on the processing

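Against CT fish, the C107R130 decrease kept its sign and passed the threshold in all 33 alternatives per comparison with fish as the unit. The log2 fold change ran from −1.12 to −0.90 in WN (highest adjusted p = 0.0414, with median centring) and from −1.38 to −1.07 in WH fish (0.0153). Some of the 33 could change only the p and left the log2 fold change at −1.002 and −1.24. They were the detection filters, the tank and replicate blocks and the fit of only the arrays compared. Leaving out an array from outside the comparison and the exact permutation test were others. The exact permutation p, 0.00217 for each, was not adjusted and was the smallest possible. Leaving out 1 array gave −1.12 to −0.90 and −1.31 to −1.13. WH v WN stayed short of the threshold, from −0.31 to −0.12. C255R069 in WN fish passed the threshold with the authors' values (−0.89, adjusted p = 0.03), with tank as a random block (−0.74, 0.0351), with spots kept that were flagged only for saturation, chosen after seeing the data (−0.87, 0.0336), and in the exact permutation test (−0.74, p = 0.0108, not adjusted), as it did in WH fish (−0.67, p = 0.0108). With tank as a random block, the estimated correlation between tank-mates was −0.05, and the SE was 0.209 in place of 0.224. That setting therefore made no added allowance for tanks. Leaving out 1 array gave −0.86 to −0.57 for C255R069 in WN fish, past the threshold without CT-3 (adjusted p = 0.0305) or WN-1 (0.0475). Some of the 32 C255R069 alternatives again could not move its log2 fold change. In 26 of the 32, C255R069 stayed short of the threshold in WN fish (highest adjusted p = 0.251, with median centring). Its WH v WN difference ran from −0.11 (without WN-5) to 0.16 over arrays left out, was −0.0022 without WH-3, and reached 0.35 with the flagged WH-6 spot kept. The count of probes called fell from 1179 to 473 for WN and from 1226 to 497 for WH with median centring, to 693 for WH with slide as a block, and to 754 for WN without CT-6 (754 to 1165 over arrays left out). Median centring moved the median log2 fold change of all probes to −0.13 for WN, with 24.9% of calls higher in place of 37.7%. No background correction let WN-2 (0.21) pass the lowest CT fish (0.16). Among the relations, serpinh1 passed with the authors' values (−0.67), hsp90aa1 changed sign to 0.21 with slide taken out and to 0.028 without 2 fish, and txn to 0.019 with slide. The causes were not tested. Same-numbered fish of different treatments correlated by −0.11 to 0.12 and others by −0.19 to 0.28. The replicate block gave −1.002 (adjusted p = 0.0156) and −1.24 (0.00335) for C107R130 and changed no call of either CIRBP probe. Dim probes have the least certain ratios.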
